A study of Arabidopsis thaliana with 6 samples.

Results

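The unfolded protein response is the set of signals that an overloaded endoplasmic reticulum (ER) sends to the nucleus. In Arabidopsis it runs along a pair of arms. In the first, the ER membrane sensors IRE1A and IRE1B cut the mRNA of the transcription factor BZIP60, which then codes for a protein free of the membrane. In the second, membrane-bound factors such as BZIP28 and BZIP17 travel to the Golgi, where the site-1 protease (S1P) and the site-2 protease (S2P) release them. The freed factors switch on genes for ER chaperones and for ER-associated degradation, and IRE1 is known to protect male fertility of Arabidopsis at raised temperature.

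Followed here were 10 genes of this response. They are the sensors IRE1A and IRE1B, the proteases S1P and S2P, the factors BZIP60, BZIP28, BZIP17 and BZIP49, and the NAC-domain factors NAC062 and NAC103. They were taken by locus identifier from the 27827 features of the array, where a feature carries the code of its locus, and all 10 were present. RNA came from mature pollen of Arabidopsis thaliana, ecotype Columbia 0, with 3 arrays of wild-type plants and 3 of plants that carry 1 mutant copy of NOT1, written NOT1+/-. NOT1 is the scaffold of CCR4-NOT, the complex that shortens poly(A) tails. Per the labels, grains were released from open flowers, passed through a mesh and sorted by flow cytometry as hydrated, intact pollen, and each sample was 1 pool of grains. Grains of a heterozygous plant segregate, so a NOT1+/- sample mixes grains with and without the mutant allele, and neither the kind of mutation nor the age of the plants is given in the sources used here. Replicates are called biological in the labels without naming separate plants. The p-values below thus weigh the genotype difference against the spread between samples, which need not be that between plants.

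Intensities are on a linear scale, and the median feature had an intensity of 12.0 to 13.1 on the 6 arrays. No detection calls were used, so this median serves below as a mark for dim values, and levels of different genes, which are read by different probes, are not ranked. NOT1 itself (AT1G02080) fell to 63.8% of wild type (log2 fold change -0.65, SE 0.15, limma adjusted p = 0.0295), but the call was lost without any 1 of the 6 arrays (adjusted p 0.0527 to 0.118). Summed over 8 genes of the vegetative cell of pollen, intensity was 8121 to 8990 in wild type and 8825 to 9249 in NOT1+/-. That sum is carried by the brightest genes. Of the 8, 4 rose, where 8.84% of all features were called higher. These were ANX1, RBOHH, RBOHJ and VEX1, with log2 fold changes of 0.61, 0.88, 1.17 and 3.80. The other 4 were not called, and 3 of them had a log2 fold change below 0: AGP6 (-0.40), ANX2 (-0.29) and AGP11 (-0.10). Over 5 genes of the sperm cells the summed intensity was 673 to 679 and 723 to 1153, without overlap, with the highest value in NOT1+/- replicate 3. GEX1 gave the largest part of that sum (392 to 411 and 395 to 644) and was not called (log2 fold change 0.29). Of the 5, 2 rose, DUO1 and MGH3, while HAP2 (0.31) and GEX2 (-0.09) were not called. Sums over 7 photosynthesis genes (58.4 to 66.7 and 49.4 to 59.8), 7 tapetum genes (109 to 125 and 100.3 to 119) and 5 floral organ genes (54.3 to 57.2 and 48.6 to 62.4) overlapped between genotypes, those of photosynthesis only narrowly, and all 7 photosynthesis genes had a log2 fold change below 0. Their median log2 fold change was -0.15, where that of all features was -0.10. Of these 7 genes, 6 had a wild-type mean below all 6 array medians, so their changes rest on dim values. In these 3 lists limma called 0 genes higher and 1, the photosynthesis gene CAB2, lower (log2 fold change -0.72, adjusted p = 0.0449). Over all features, 8.84% were called higher and 3.22% lower. At an unadjusted limma p under 0.05, 1 floral organ gene was higher, and 1 floral organ gene and 2 photosynthesis genes were lower. All features had 13.2% higher and 12.5% lower there, and counts this small were not read as apart from these shares. The tapetum genes A9 and GRP17 and the floral organ gene PI were above the array median on all 6 arrays. The part of other cells' RNA in the results below was not tested. In such bulk samples, fewer cells of a type cannot be told apart from less RNA per cell.

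Of the 10 genes, IRE1A and BZIP17 rose in NOT1+/- pollen, and the other 8 did not pass the test. IRE1A was 3.75-fold and BZIP17 was 2.69-fold higher. The test was limma on log2 intensity with 1 coefficient for genotype, run on the whole table of 27827 features with Benjamini-Hochberg adjustment, and "called" means an adjusted p below 0.05. Over all features, 8.84% were called higher and 3.22% lower, 12.1% in all, and with 10 genes a count of 2 higher and 0 lower was not read as apart from that background. At an unadjusted p under 0.05, limma had 3 of the 10 higher and 2 lower, where all features had 13.2% and 12.5%. The 3 values of one genotype lay wholly above or below those of the other in 5 of the 10 genes, 4 higher and 1 lower in NOT1+/-, against 31.8% of all features (14.9% above and 16.9% below). The median log2 fold change of the 10 genes was 0.25, and that of all features was -0.10.

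**Figure D1:**
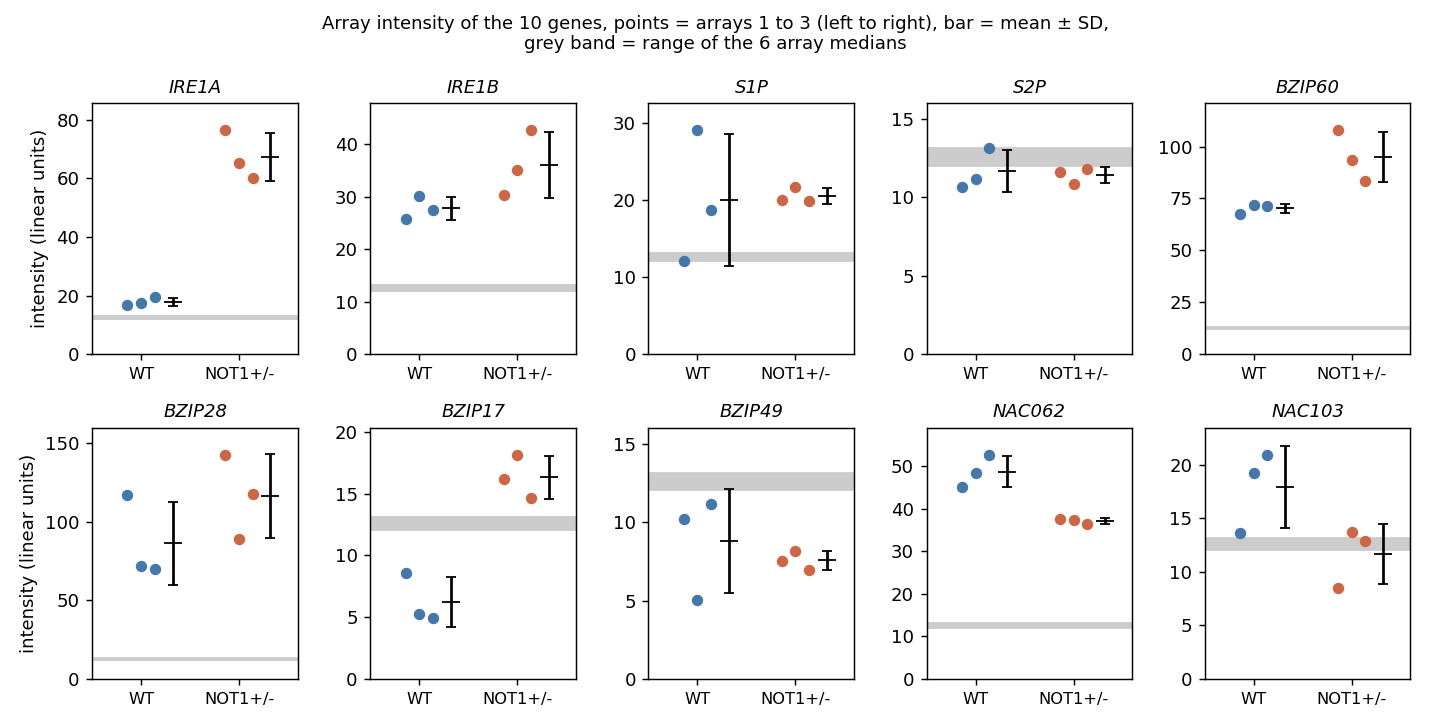
Intensity in linear units (vertical axes, each from 0) of the 10 genes on the 3 wild-type and 3 NOT1+/- arrays, with the mean ± SD of each genotype and a grey band for the range of array medians (12.0 to 13.1). The NOT1+/- points of IRE1A and BZIP17 sit well above the wild-type points, BZIP49 lies under the grey band on all arrays, and S1P is spread from 12.1 to 29.1 in wild type.

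Of the 2 sensors, IRE1A was the one that rose. IRE1A (AT2G17520_at), a kinase and endoribonuclease, had intensities of 16.9, 17.3 and 19.5 on wild-type arrays 1 to 3 and 76.5, 65.3 and 60.3 on NOT1+/- arrays 1 to 3. Its lowest NOT1+/- value was thus far above its highest wild-type value, and no array of either genotype lay below its own array's median. The means were 17.9 ± 1.41 and 67.3 ± 8.29 (SD, n = 3 arrays each), with a log2 fold change of 1.91 (SE 0.17, 95% interval 1.52 to 2.29, limma adjusted p = 2.09e-04). IRE1A was called under all 14 settings tried, the main one included, with log2 fold changes between 1.29 and 1.98.

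IRE1B (AT5G24360_at, listed as IRE1-1 in the reference table), the second sensor of the same type, had intensities of 25.8, 30.2 and 27.4 in wild type and 30.2, 35.2 and 42.7 in NOT1+/-. The genotypes only just separated, since wild-type array 2 and NOT1+/- array 1 had nearly the same value. With a log2 fold change of 0.36 (SE 0.18, 95% interval -0.06 to 0.79, limma adjusted p = 0.263), IRE1B was not called, and it was called under none of the settings tried. After quantile normalization, which makes the 6 distributions identical, its log2 fold change was 0.14, and without NOT1+/- replicate 3 it was 0.23.

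Neither protease passed the test. S1P (AT5G19660_at), a Golgi subtilase that makes the first cut in BZIP28 and BZIP17, had wild-type intensities of 12.1, 29.1 and 18.7 and NOT1+/- intensities of 20.1, 21.8 and 19.9. With BZIP49, S1P had the widest wild-type spread of the 10 genes on the log2 scale (SD 0.63 for both), while the NOT1+/- arrays were close together (SD 0.072). All NOT1+/- values lay inside the wild-type range, with an estimated log2 fold change of 0.13 (SE 0.30, 95% interval -0.57 to 0.83, limma adjusted p = 0.826). Its sign rested on wild-type replicate 1: without that array the log2 fold change was -0.18, and without wild-type replicate 2 it was 0.45.

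S2P (AT4G20310_at), the metalloprotease that makes the second cut inside the membrane, had 10.7, 11.2 and 13.2 in wild type and 11.6, 10.8 and 11.8 in NOT1+/-. These values overlapped, and 5 of the 6 lay below the median of their own array, so a dim signal limits what can be read from S2P. Its log2 fold change was -0.03 (SE 0.16, 95% interval -0.40 to 0.35, limma adjusted p = 0.94), and its sign turned with the scaling (0.05 after median centring, 0.06 after quantile normalization).

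Among the membrane-bound bZIP factors, BZIP60 (AT1G42990_at), the target of IRE1, had intensities of 67.7, 71.9 and 71.2 in wild type and 107.8, 93.7 and 83.5 in NOT1+/-. The wild-type arrays lay close together, and all 3 NOT1+/- arrays lay above them. The means were 70.3 ± 2.27 and 94.997 ± 12.2 (SD, n = 3 each), 1.35-fold apart, with a log2 fold change of 0.43 (SE 0.16, 95% interval 0.05 to 0.81) that did not pass the test (limma adjusted p = 0.147). The size depended on scaling, and after quantile normalization the log2 fold change was 0.05 (adjusted p = 0.881, in a range of 0.0315 to 0.881 over all settings). The array gives 1 value per locus, which does not separate the spliced from the unspliced BZIP60 mRNA.

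BZIP28 (AT3G10800_at), the main factor of the protease arm, had 116.7, 71.98 and 69.7 in wild type and 142.3, 89.2 and 117.6 in NOT1+/-. Wild-type array 1 stood above the other two and within the NOT1+/- range, so the genotypes overlapped. Its estimated log2 fold change was 0.45 (SE 0.26, 95% interval -0.16 to 1.06, limma adjusted p = 0.336), and it was 0.03 after quantile normalization, 0.69 without wild-type replicate 1 and 0.29 when NOT1+/- replicate 1 was left out. BZIP28 was called under none of the settings tried.

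BZIP17 (AT2G40950_at), known for salt stress and root growth as well as for the ER response, had 8.55, 5.22 and 4.94 in wild type and 16.2, 18.1 and 14.6 in NOT1+/-. All 3 wild-type values lay below, and all 3 NOT1+/- values above, the median of their own array. The means were 6.24 ± 2.01 and 16.3 ± 1.74 (SD, n = 3 each), with a log2 fold change of 1.43 (SE 0.24, 95% interval 0.87 to 1.98, limma adjusted p = 0.0063). With a wild-type signal this dim, the size of the rise is uncertain. It was 0.54 when 16 intensity units were added before log2 (adjusted p = 0.0025), in a range of adjusted p from 0.0016 to 0.0338 over the settings in which BZIP17 was tested, all of which called it. BZIP17 is left out when only features above the median level are tested.

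BZIP49 (AT3G56660_at), the third factor of the group that holds BZIP17 and BZIP28, was dim on every array, at 10.2, 5.04 and 11.2 in wild type and 7.55, 8.16 and 6.98 in NOT1+/-. All 6 values were below the median of their own array, and the NOT1+/- values lay within the wild-type range. The log2 fold change of -0.14 (SE 0.30, 95% interval -0.84 to 0.56, limma adjusted p = 0.817) was far smaller than its interval, and its sign turned without wild-type replicate 1 or 3 (0.01 and 0.07).

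The NAC factors lay in the other direction without passing the test. NAC062 (AT3G49530_at), a membrane-bound factor that moves to the nucleus under cold and ER stress, had 45.2, 48.4 and 52.6 in wild type and 37.6, 37.4 and 36.4 in NOT1+/-. The NOT1+/- arrays lay close together, below all wild-type arrays. The means were 48.7 ± 3.72 and 37.1 ± 0.649 (SD, n = 3 each), with a log2 fold change of -0.39 (SE 0.15, 95% interval -0.74 to -0.04, limma adjusted p = 0.151). After quantile normalization the value was -0.67 and NAC062 was called lower (adjusted p = 0.0209, in a range of 0.0209 to 0.304).

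NAC103 (AT5G64060_at), a factor known as a target of BZIP60 that passes the signal on to other ER stress genes, had 13.7, 19.2 and 20.9 in wild type and 8.5, 13.7 and 12.9 in NOT1+/-. The lowest wild-type value and the highest NOT1+/- value nearly coincided, so the genotypes overlapped by 1 array each. Its estimate was -0.62 on the log2 scale (SE 0.25, 95% interval -1.20 to -0.04, limma adjusted p = 0.166), and NAC103 was called under none of the settings tried. It was -0.41 without NOT1+/- replicate 1, -0.81 without wild-type replicate 1 and -0.29 with 16 units added before log2. For each of the 5 genes whose genotypes did not overlap (IRE1A, IRE1B, BZIP60, BZIP17 and NAC062), an exact permutation test (two-sided) returned p = 0.1, which is as small as 3 against 3 arrays permit. Any gene without overlap gets this value, so it adds nothing to the lack of overlap itself. For the other 5 genes the same test gave p from 0.2 to 0.9.

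**Figure D2:**
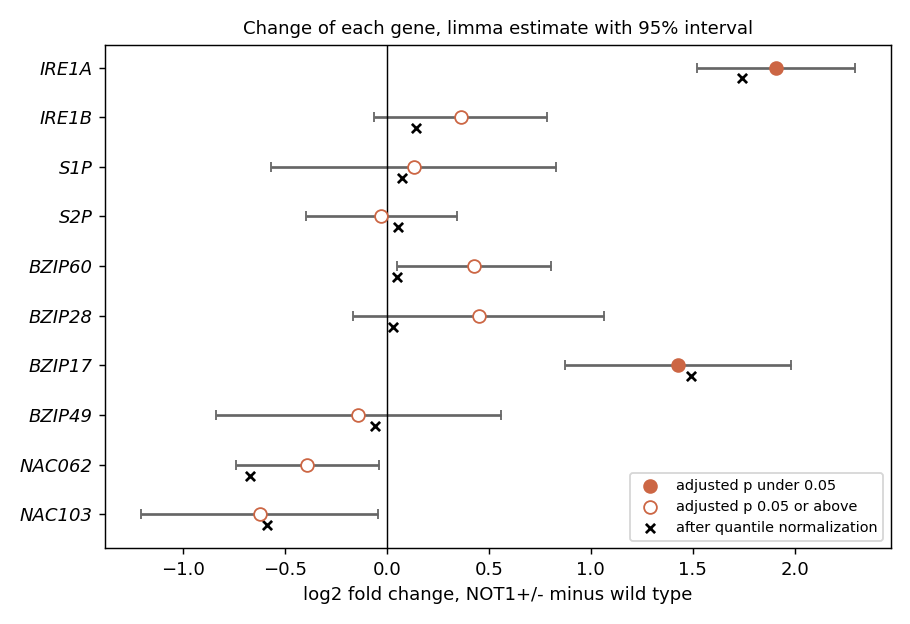
Log2 fold change, NOT1+/- minus wild type (horizontal axis), of the 10 genes, as the limma estimate with its 95% interval. Filled points passed an adjusted p of 0.05, open points did not, and crosses give the estimate after quantile normalization. IRE1A (1.91) and BZIP17 (1.43) are the filled points, and the crosses of BZIP60 (0.05) and BZIP28 (0.03) lie near 0.

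Related genes were then compared within each array, as the log2 ratio of one gene to another, in 5 pairs. The IRE1A to IRE1B ratio was -0.61, -0.80 and -0.49 in wild type and 1.34, 0.89 and 0.50 in NOT1+/-. The ratio was higher in NOT1+/- by 1.54 log2 units (SE 0.26), and the values of the genotypes did not overlap. The BZIP17 to BZIP28 ratio was nearly the same on the 3 wild-type arrays, at -3.77, -3.79 and -3.82, and was -3.14, -2.30 and -3.01 in NOT1+/-. It differed by 0.98 log2 units (SE 0.26), again without overlap, but BZIP17 is dim in wild type and the size was 0.16 with 16 units added before log2 (exact permutation p = 0.6) and 1.46 after quantile normalization. For both pairs an exact permutation test (two-sided) returned p = 0.1 in the main setting, and 0.25 after adjustment over the 5 pairs. This test cannot go below 0.1 with 3 arrays a group.

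The other 3 ratios overlapped between genotypes. The BZIP28 to BZIP49 ratio differed by 0.59 (SE 0.43, exact permutation p = 0.3), the S1P to S2P ratio by 0.16 (SE 0.37, exact permutation p = 0.8) and the BZIP28 to BZIP60 ratio by 0.02 (SE 0.32, exact permutation p = 1), and the adjusted values were 0.5, 1 and 1. The BZIP28 to BZIP49 difference was 0.091 after quantile normalization and 0.24 and 0.84 without wild-type replicates 3 and 2. The probes of 2 genes differ in brightness, so the level of a ratio has no meaning of its own, and the difference between genotypes is what was measured.

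**Figure D3:**
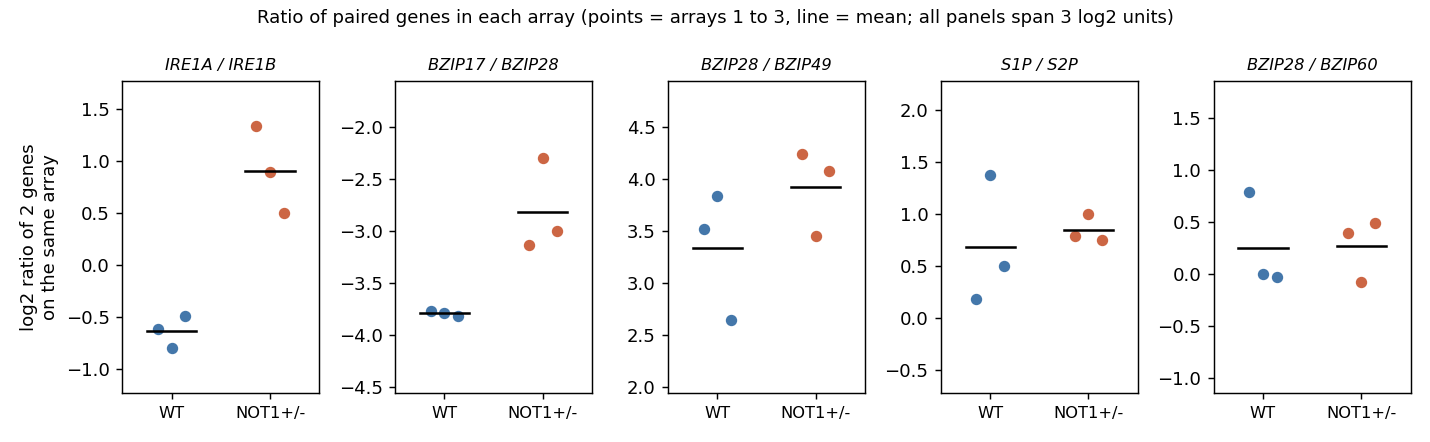
Log2 ratio of 2 genes on the same array (vertical axes, each spanning 3 log2 units) for 5 pairs, by genotype, with points for arrays 1 to 3 and a line at the mean. IRE1A over IRE1B is higher in NOT1+/- without overlap, BZIP17 over BZIP28 is tight in wild type and higher in NOT1+/-, and the other 3 pairs overlap.

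The features most like the called genes were found by correlation. Across the 6 log2 values, IRE1A was most like DJ1A, RALFL17 (a RALF-like peptide) and ROC1 (a cyclophilin), each at Pearson r = 0.999, among 10555 other features with a gene symbol. As many as 285 of those features exceeded r = 0.99 with IRE1A. BZIP17 was most like SDG25 (a SET-domain protein), PMM (phosphomannomutase) and BPC4 (a BASIC PENTACYSTEINE factor), at 0.998, 0.995 and 0.994, with 7 features above 0.99. The arrays fall into 2 genotypes, so any step between them enters each of these values.

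The genes that the 10 regulators are known to act with or upon were set beside them. Among 10 partners, BI1, an ER suppressor of cell death, rose, with mean intensities of 83.3 ± 14.3 in wild type and 258 ± 52.4 in NOT1+/- (SD, n = 3 each) and a log2 fold change of 1.63 (SE 0.22, limma adjusted p = 0.002). The other 9 did not pass, with a median log2 fold change of -0.14 over the 10. RLG1, the ligase known to join the cut BZIP60 mRNA, had a log2 change near 0 (0.08, adjusted p = 0.839), and BAG7, an ER co-chaperone known to bind BZIP28, had -0.18 (adjusted p = 0.603). So 1 of the 10 partners was called higher by limma and 0 lower, where all features had 8.84% and 3.22%. At an unadjusted limma p under 0.05, 2 of the 10 were higher and 3 lower, where all features had 13.2% and 12.5%. With 10 genes, these counts were not read as apart from that background. GCN2, an eIF2alpha kinase, and AGB1, a G protein subunit, both chosen after their values were seen, had -0.65 (adjusted p = 0.0523) and -0.61 (0.0603).

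Known targets of the response lie among genes of the ER machinery, which were taken as 4 lists. In ER folding, 10 of 15 rose, with a median log2 fold change of 2.90 over the list. The ER HSP90 SHD, for example, averaged 8.92 ± 0.917 in wild type and 292.5 ± 66.0 in NOT1+/- (SD, n = 3 each), a log2 fold change of 5.01 (SE 0.21, limma adjusted p = 7.46e-06), and calnexin CNX1 had one of 3.67 (SE 0.23). TIN1, which is known to be induced by ER stress, had -0.24 (adjusted p = 0.362). In disulfide formation 8 of 15 rose (median 1.05), among them the disulfide isomerase PDIL1-6 (3.89, SE 0.20) and the oxidase ERO1 (1.88, SE 0.18). In ER-associated degradation 5 of 14 rose (median 0.41), led by the lectin OS9 (1.92, SE 0.15) and the ubiquitin-conjugating enzyme UBC32 (1.74, SE 0.16), and in ER entry and exit 8 of 15 rose (median 0.74), led by the coat protein AT1G18830 (3.74, SE 0.18).

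Together 31 of 59 ER genes were called higher, 52.5%, against 8.84% of all features, and 0 were called lower, against 3.22%. With 59 genes, 0 lower was not read as apart from that share. At an unadjusted p under 0.05, limma had 36 of the 59 higher and 3 lower, where all features had 13.2% and 12.5%. The lists were chosen with earlier results of these data known, and the difference between them and the 10 regulators was not tested. Of the 31, 10 had a wild-type mean below all 6 array medians, SHD among them, so the sizes of those rises are uncertain. Near-identical paralogues such as BIP1 and BIP2 may share probe signal.

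Among the NOT1+/- arrays, replicate 3 had the lowest value for 29 of these 31 genes. Over all features called higher it was lowest for 1908 of 2461 (77.5%), and the difference between these shares was not tested. IRE1A, BZIP17 and BZIP60 were also lowest in NOT1+/- replicate 3, and so were S1P, BZIP49 and NAC062. IRE1B and S2P were highest there, as was the summed sperm signal (1153 against 723 and 819). The margin was slight for S2P (11.8 against 11.6 and 10.8), as it was for the low value of S1P (19.9 against 20.1 and 21.8). The part of sperm RNA in these values was not tested. Without NOT1+/- replicate 3 the log2 fold change was 1.98 for IRE1A, 1.50 for BZIP17 and 0.52 for BZIP60, and 29 ER genes were called higher, all of them among the 31.

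**Figure D4:**
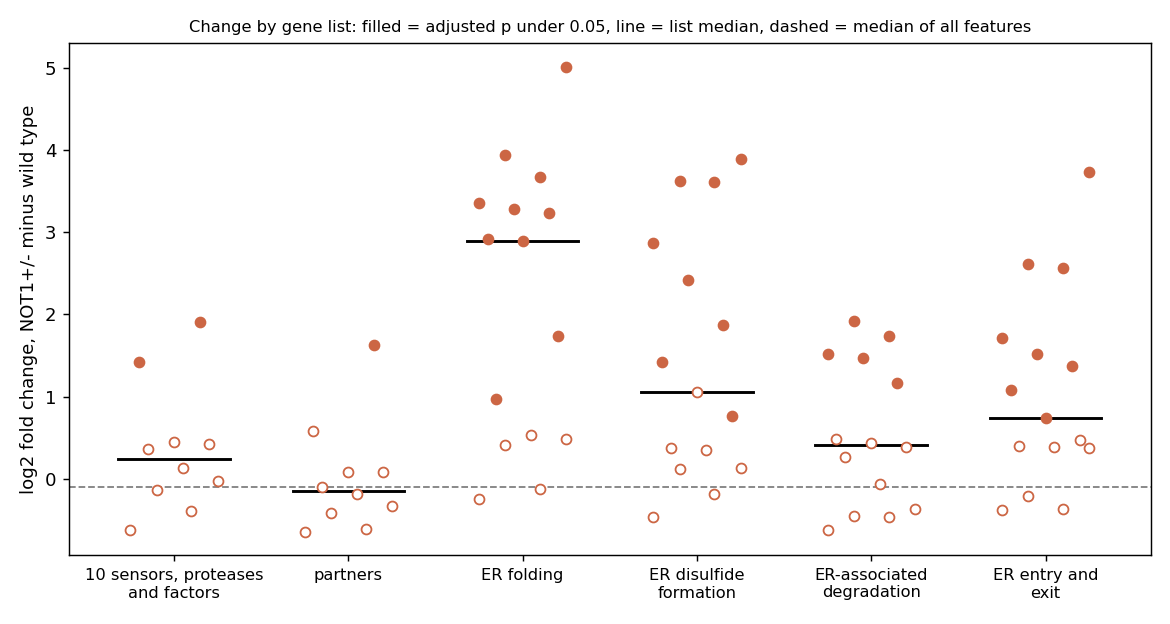
Log2 fold change, NOT1+/- minus wild type (vertical axis), of each gene in 6 lists, with filled points at an adjusted p under 0.05, a line at each list's median and a dashed line at the median of all features (-0.10). In the list of 10 sensors, proteases and factors 2 points are filled, while 10 of 15 are filled in ER folding.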

How the data were processed

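RNA of sorted pollen was hybridised to 1-colour Affymetrix whole-transcript arrays. The deposited table holds linear intensity values, 1 per locus and array, with a smallest value of 1 on each array. Per the submitters' processing notes, the authors used Affymetrix Expression Console; no version, summarisation, background correction or scaling is stated in the labels. The 95th percentiles were 133 to 141 in wild type and 193 to 202 in NOT1+/-, so scaling bears on every change. Scan dates were not used, and precision is limited by the number of arrays.

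The log2 of each value was fitted without offset or filter in limma 3.58.1 (R 4.3.3, with lmFit and eBayes, trend and robust off) on all 27827 features. The fit was also run on simulated data with independent normal noise and set changes. Those data held no scaling difference between genotypes, so that check does not bear on the effect of scaling. Fold changes are ratios of geometric means. Pairs were tested with exact permutation over arrays. All 10 genes matched the reference table (RefSeq, TAIR10.1), used for names only, and none shared its 6 values with another feature. Roles and the identity of AT1G02080 as NOT1 are background knowledge. Members and lists were chosen with earlier results of these data known. Named genes are the 10, NOT1, up to 6 called genes of each list (examples are printed), and the 3 features most correlated with each called gene. Cell type markers, uncalled genes of the lists and the BIP paralogues were named after their values were seen. Alternatives were a replicate block, trend and robust, 3 scalings, a filter on dim features, an offset of 16 and leaving out each array.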

Additional observations from a re-analysis of the deposited data

How the results depend on the processing

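Same-numbered arrays correlated at 0.114, 0.133 and -0.013 in their deviations from the genotype means, and not every array correlated best with its own number, so the numbers were not taken as pairs. With the replicate block, IRE1A (log2 fold change 1.91, adjusted p = 0.0026) and BZIP17 (1.43, 0.015) remained called, and NOT1 was not (-0.65, adjusted p = 0.0696); 29 ER genes were called higher, all among the 31. Over all features the block gave 2163 rises and 555 falls, against 2461 and 896 without it. NOT1 was also not called with median centring (-0.57), and leaving out 1 array gave -0.68 to -0.59. BZIP60 was called higher with trend and robust (0.43) and with 16 units added (0.36), and NAC062 lower with quantile normalization (-0.67) and with 16 units added (-0.28), so that 1 of the 10 was lower under those last 2 settings. With only features above the median level, 1 of the 10 was higher, since BZIP17, BZIP49 and S2P are not in that fit.

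Signs near 0 turned. S2P was 0.056 with quantile normalization and 0.052 with median centring. Leaving out 1 array gave -0.50 to 0.074 for BZIP49, -0.18 to 0.45 for S1P, -0.089 to 0.065 for S2P, -0.095 to 0.50 for the S1P to S2P ratio and -0.12 to 0.29 for the BZIP28 to BZIP60 ratio, which was -0.018 with quantile normalization; the IRE1A to IRE1B ratio stayed between 1.33 and 1.75. The BZIP17 to BZIP28 ratio gave 0.72 to 1.14 and the BZIP28 to BZIP49 ratio 0.24 to 0.84.

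Among partners, 2 were higher with quantile normalization, and 2 were lower (GCN2 and AGB1) with trend and robust, quantile normalization, 75th percentile centring, the filter and 16 units added. In ER folding 1 was lower (TIN1) with trend and robust and with quantile normalization, and in ER entry and exit 1 (SEC62) with quantile normalization. In degradation 1 was lower with trend and robust, 2 with quantile normalization, 1 with 75th percentile centring, 3 with the filter and 2 with 16 units added. Counts of ER rises were 28 to 33. Over all features, falls numbered 1991 with quantile normalization against 896. The causes were not tested. Signal over background limits BZIP17, BZIP49 and S2P most.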
